A study of Mus musculus with 9 samples.

Results

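The lysyl oxidase family of the mouse consists of 5 genes, Lox, Loxl1, Loxl2, Loxl3 and Loxl4, and its chromatin accessibility was followed in the mouse breast carcinoma line D2A1-d after knockdown of Med4. Members were taken as the ATAC-seq peaks whose centre lay in the mm10 gene body of one of these genes or within 50 kb of either of its ends. This rule uses position only and gave 83 of the 146734 peaks of the deposited table, namely 17 around Lox, 21 around Loxl1, 10 around Loxl2, 22 around Loxl3 and 13 around Loxl4. The cells carried shMed4 #1 or shMed4 #4, which are different short hairpins against Med4 and are labelled Med4 knockdown, or a non-targeting control hairpin (NTC), labelled wild type. Each group had 3 libraries, numbered as biological replicates. All were otherwise untreated, and all came from the same parental line. Med4 encodes a subunit of Mediator, the complex that connects transcription factors with RNA polymerase II. RNA was not measured here, so the degree of Med4 knockdown was not checked.

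Lysyl oxidases are secreted copper enzymes that oxidise lysines in collagen and elastin, and the aldehydes they form then crosslink these fibres. Lox and Loxl1 are made with a propeptide that is cut off outside the cell, while Loxl2, Loxl3 and Loxl4 carry scavenger receptor domains in its place. In breast tumours the family is known for stiffening the matrix and for its part in invasion and metastasis. In ATAC-seq a transposase cuts accessible DNA, so the number of reads in a peak reports how open that stretch is. More cells with an open site and more opening per cell cannot be told apart in bulk libraries.

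Values are normalised reads per peak, and because every peak has the same width, levels of different peaks can be set side by side. Libraries held 44.8 M to 98.9 M reads in peaks and a median of 231 to 532 reads per family peak. A peak was called higher or lower where limma, fitted over all 146729 peaks with a mean of at least 10, gave a Benjamini-Hochberg adjusted p under 0.05, and all 83 family peaks entered that fit. The labelled carcinoma was checked at peaks within 1 kb of an end of marker genes. Of 6 epithelial markers, Krt18 and Cldn7 had such a peak and Epcam, Krt8, Krt19 and Cdh1 had none, whereas 4 of 6 mesenchymal markers had one, among them Vim and Col1a1. Summed epithelial markers lay at 390.2 to 426 in shMed4 #1, 499 to 561 in shMed4 #4 and 223 to 249 in NTC libraries, and summed mesenchymal markers at 5577 to 5656, 5464 to 6068 and 6541 to 6993 in the same order. Single markers did not all follow their sum: Krt18 averaged 368 in shMed4 #1, 465 in shMed4 #4 and 164 in NTC cells, and Cldn7 averaged 40.7, 56.0 and 67.6. Vim averaged 3072, 3085 and 4155, and Thy1 averaged 183, 233 and 101 in the same order. The leukocyte markers Ptprc, Cd3e and Itgam had no such peak. Of 3 endothelial markers Cdh5 alone had one, at 413 to 472 in shMed4 #1, 268 to 303 in shMed4 #4 and 231 to 250.3 in NTC libraries, with none at Pecam1 and Tek. The part of these markers in the results was not tested.

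The loci differed in how much of their accessibility belonged to the member gene itself. Peaks are numbered within each locus from the lower coordinate upwards, and the ends of a gene are called lower and upper by coordinate. Lox (gene ID 16948, chr18:52516060-52529867) had 2 of its 17 peaks in the gene body, and Srfbp1 held 3 others. Loxl1 (16949, chr9:58287723-58313212) had 6 of 21 in the gene body, with Pml and Stoml1 below it. Loxl2 (94352, chr14:69608692-69695834), the longest of the 5 genes, had 3 of 10 in its body and no peak for 132 kb from the lower edge of the window, so that its first peak lay 82.3 kb inside the gene. This locus held 5.34 peaks per 100 kb, against 10.8 to 18.6 at the others. Loxl3 (16950, chr6:83034205-83052566) had none of its 22 peaks in the gene body, and it lies in a gene-dense stretch with M1ap, Dok1, Htra2, Aup1 and Dqx1. Loxl4 (67573, chr19:42592279-42612806, minus strand) had 3 of 13 in the gene body, next to R3hcc1l. The member was the nearest gene for 36 of the 83 peaks and another gene for 47, and at Loxl3 it was nearest for 1 of 22. As a group the family peaks were more open than the peaks of the whole table: their median NTC value was 316, against 184 for all peaks. The loci differed in this, with medians of 198 at Lox, 208 at Loxl1, 388 at Loxl2, 928 at Loxl3 and 663 at Loxl4. Of the 83, 57 were above the median of all peaks. Single family peaks ranged from 34.8 to 4454 in NTC means, and some were among the least open. Loxl2 peak 5 and Lox peak 9, for example, lay at percentiles 5.22 and 9.2 of all peaks.

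**Figure D1:**
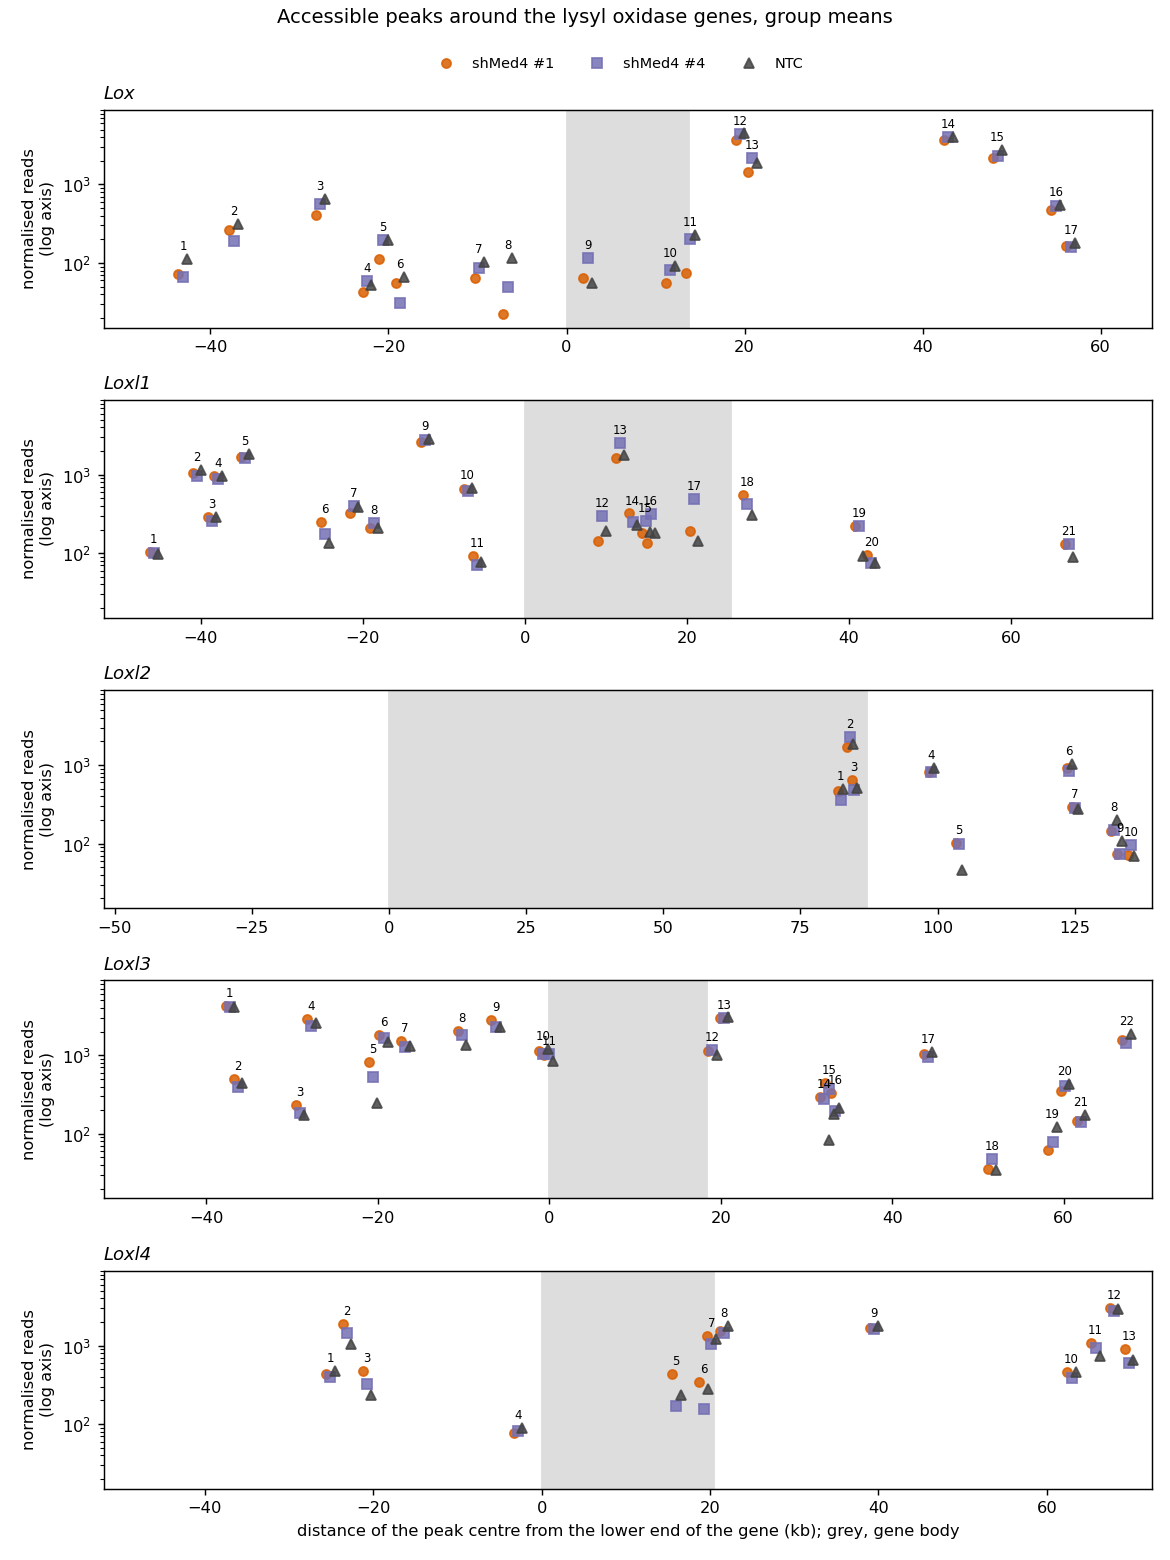
Group means (normalised reads, log axis) of the 83 peaks around the lysyl oxidase genes in shMed4 #1, shMed4 #4 and NTC cells, against the distance of each peak centre from the lower end of its gene in kb, with the gene body in grey. Markers of the 3 groups are offset sideways for legibility. The Loxl2 gene body is bare up to its first peak at 82.3 kb, and no peak centre falls in the Loxl3 gene body.

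Of the 5 genes, Loxl4 had an entry in the RefSeq promoter table (GRCm38.p6), and its promoter is shown because the gene-body peaks that end next to it differed between the hairpins. The window is chr19:42612757-42613056 on the minus strand, from 250 bases before the start to 50 after it, printed 5′ to 3′ with motif matches in capitals.

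Loxl4 promoter: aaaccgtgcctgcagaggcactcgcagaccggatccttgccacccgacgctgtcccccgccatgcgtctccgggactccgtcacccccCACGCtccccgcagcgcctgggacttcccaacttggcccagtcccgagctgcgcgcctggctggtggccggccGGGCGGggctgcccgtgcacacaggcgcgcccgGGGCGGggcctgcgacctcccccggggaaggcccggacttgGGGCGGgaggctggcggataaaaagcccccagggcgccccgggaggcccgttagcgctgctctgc

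The window was 75% G and C, above 96.1% of 32851 promoters, whose median was 52.7%, and it held 32 CG pairs. Both strands were searched for TGANTCA, the AP-1 motif, for GGAATG, the TEAD motif, for ACGTG and for GCGTG, which hold the HIF core, for GGGCGG, the GC box, for CCAAT, the NFY motif, and for TATAAA, the TATA box. GGGCGG matched 3 times on the gene's strand, with its first base at -89, -56 and -15 from the start, and is found in 35.7% of all promoters of that table. GCGTG matched once on the opposite strand (the capitals CACGC, at -162) and is found in 32.4%. The other letters were not in this window. The window lay 64 bp above the end of peak 7, the Loxl4 gene-end peak, and 647 bp below the start of peak 8, so no peak of the table covered it.

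With shMed4 #1 against NTC, 28 family peaks rose and 25 fell, and 30 were not called. The 53 called were 63.9% of the family, against 52.7% of all peaks tested (27.9% higher and 24.9% lower). With shMed4 #4 against NTC, 23 rose and 26 fell, or 59.0% of the family, against 50.4% of all peaks (26.2% higher and 24.3% lower). Between the hairpins, shMed4 #4 was higher than shMed4 #1 at 17 and lower at 26 of the 83, or 51.8%, against 41.6% of all peaks (20.4% higher and 21.2% lower). All 3 shares lay above the background, and the median family peak was also more open than the median of all peaks. The shares themselves were not tested. Both hairpin comparisons use the same NTC libraries, so their values are given side by side. The split into higher and lower depended on scaling: with libraries centred on the median of gene-end peaks, 30 rose and 17 fell for shMed4 #1, and 29 rose and 14 fell for shMed4 #4. That centring moved the median log2 fold of all peaks to 0.090 in both comparisons.

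Median log2 folds over the 83 peaks were near zero, at -0.025 for shMed4 #1 against NTC (all peaks -0.014), -0.059 for shMed4 #4 against NTC (all peaks -0.021) and -0.064 for shMed4 #4 against shMed4 #1 (all peaks -0.0033). A change of at least 2-fold was seen at 6 higher and 2 lower peaks with shMed4 #1 (6.53% and 2.58% of all peaks) and at 7 higher and 2 lower with shMed4 #4 (7.13% and 0.923%). The balance of calls differed between members, and at Loxl4 it also turned between the hairpins. With shMed4 #1 the calls were 0 higher and 13 lower at Lox, 6 and 5 at Loxl1, 2 and 3 at Loxl2, 13 and 3 at Loxl3, and 7 and 1 at Loxl4. With shMed4 #4 they were 2 higher and 6 lower at Lox, 9 and 2 at Loxl1, 2 and 5 at Loxl2, 7 and 6 at Loxl3, and 3 and 7 at Loxl4. In the test of shMed4 #4 against shMed4 #1, 9 peaks were higher and 2 lower at Lox, 6 and 3 at Loxl1, 1 and 3 at Loxl2, 1 and 9 at Loxl3, and 0 and 9 at Loxl4. All 14 gene-body peaks of the family were called in that test, 8 higher and 6 lower, against 41.6% of all peaks tested. The share among the gene-body peaks of other genes was not computed.

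**Figure D2:**
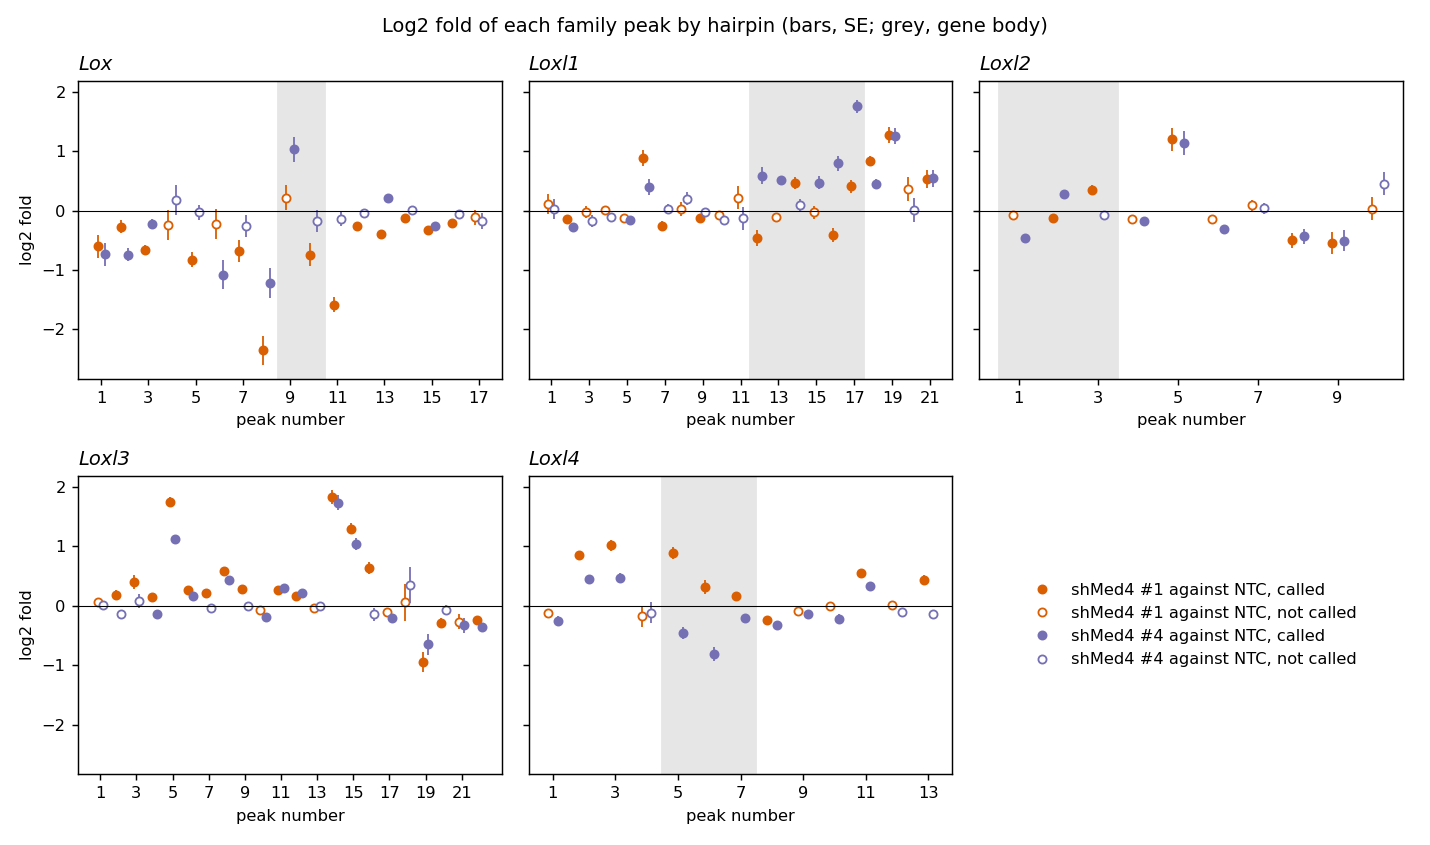
Log2 fold (limma) of each family peak for shMed4 #1 against NTC and shMed4 #4 against NTC, by peak number along each locus, with bars for the SE, filled points for called and open points for uncalled peaks, and grey for gene-body peaks. Lox peaks 8 and 11 are the lowest for shMed4 #1, Loxl1 peak 17 is the highest for shMed4 #4, and the 3 Loxl4 gene-body peaks lie on opposite sides of 0 for the hairpins.

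Lox encodes the founding enzyme of the family. At its locus the gene-end peak and the closest peak below the gene lost accessibility with shMed4 #1, and the gene-end peak did not pass the test with shMed4 #4. Lox peak 11 (chr18:52529727-52530228), centred 110.5 bp above the upper end of the gene, had 79.2, 73.0 and 70.4 normalised reads in shMed4 #1 libraries and 216, 203 and 192 in shMed4 #4 libraries, against 219.5, 229 and 224 in NTC libraries. The shMed4 #1 libraries lay far below both other groups, and the shMed4 #4 libraries lay just below the lowest NTC library. The log2 fold was -1.58 for shMed4 #1 against NTC (SE 0.13, adjusted p = 2.53e-13), -0.14 for shMed4 #4 against NTC (SE 0.13, adjusted p = 0.378) and 1.45 for shMed4 #4 against shMed4 #1 (SE 0.13, adjusted p = 9.27e-12).

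Lox peak 8 (chr18:52509226-52509727), 6.58 kb below the gene, had the lowest log2 fold of the 83 peaks with either hairpin. It had 18.4, 29.2 and 18.7 normalised reads with shMed4 #1 and 37.2, 49.9 and 61.7 with shMed4 #4, against 114, 125 and 106 in NTC cells. No library of one group overlapped another group. Its log2 folds were -2.35 (SE 0.25, adjusted p = 3.08e-10), -1.22 (adjusted p = 8.72e-05) and, for shMed4 #4 against shMed4 #1, 1.13 (adjusted p = 0.000306). Inside the gene, peak 9 (chr18:52518186-52518687) had 51.2, 71.4 and 71.5 normalised reads with shMed4 #1 and 131, 84.4 and 132 with shMed4 #4, against 45.2, 65.7 and 55.6 in NTC cells. It rose with shMed4 #4, by 1.03 on the log2 scale (adjusted p = 8.34e-05), and stood at 0.22 with shMed4 #1 (adjusted p = 0.398), the difference between the hairpins being 0.82 (adjusted p = 0.00171).

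The other named Lox sites lay further from the gene ends or were far more open. Peak 6, 18.7 kb below the gene and nearest to Srfbp1, a gene for a serum response factor binding protein, averaged 56.3 ± 7.48 with shMed4 #1, 31.3 ± 8.59 with shMed4 #4 and 65.9 ± 7.30 in NTC cells (SD, n = 3 each). It fell by 1.08 with shMed4 #4 (adjusted p = 0.000373), and its value for shMed4 #1 was -0.23 (adjusted p = 0.456). The most open site of the locus, peak 12, lies 5.67 kb above the gene and averaged 3714 ± 42.0, 4330.1 ± 82.9 and 4454 ± 137 (SD, n = 3 each) in shMed4 #1, shMed4 #4 and NTC cells. It fell by 0.26 with shMed4 #1 (adjusted p = 4.48e-06), against -0.04 with shMed4 #4 (adjusted p = 0.465). Next to it, peak 13, named after its values were seen, averaged 1429 ± 50.6, 2159 ± 106 and 1869.5 ± 59.7 (SD, n = 3 each) in the same groups, and was lower with shMed4 #1 (-0.39, adjusted p = 7.46e-08) and higher with shMed4 #4 (0.21, adjusted p = 0.00115). Peak 14, 29.1 kb above the gene, had the mildest of the 13 losses with shMed4 #1, at -0.13 (adjusted p = 0.02). That call was lost without shMed4 #1 replicate 1 (-0.13, adjusted p = 0.0597), shMed4 #1 replicate 2 (-0.12, adjusted p = 0.069) or NTC replicate 2 (-0.10, adjusted p = 0.13). It was also lost with libraries centred on gene-end peaks (-0.025, adjusted p = 0.64). With that centring, shMed4 #4 against NTC was called higher there (0.11, adjusted p = 0.0193). The higher value with shMed4 #4 than with shMed4 #1 at that peak, 0.13 (adjusted p = 0.024), was lost without shMed4 #1 replicate 1 (0.13, adjusted p = 0.0702), shMed4 #1 replicate 2 (0.12, adjusted p = 0.0815) or shMed4 #4 replicate 3 (0.091, adjusted p = 0.114).

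Other peaks around Lox also had negative medians. With shMed4 #1 the 17 Lox peaks had a median log2 fold of -0.33, against -0.16 for the 505 other peaks within 5 Mb and -0.13 for the 5343 other peaks of chromosome 18. With shMed4 #4 the Lox peaks had -0.18, against -0.033 within 5 Mb and -0.039 on the chromosome. With the regional shift removed from each library, peak 11 stood at -1.42 and -0.13 for the hairpins against NTC and peak 8 at -2.19 and -1.22, while the calls at peak 12 were lost (-0.095 for shMed4 #1, adjusted p = 0.0747, and 0.062 for shMed4 #4 against shMed4 #1, adjusted p = 0.286).

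**Figure D3:**
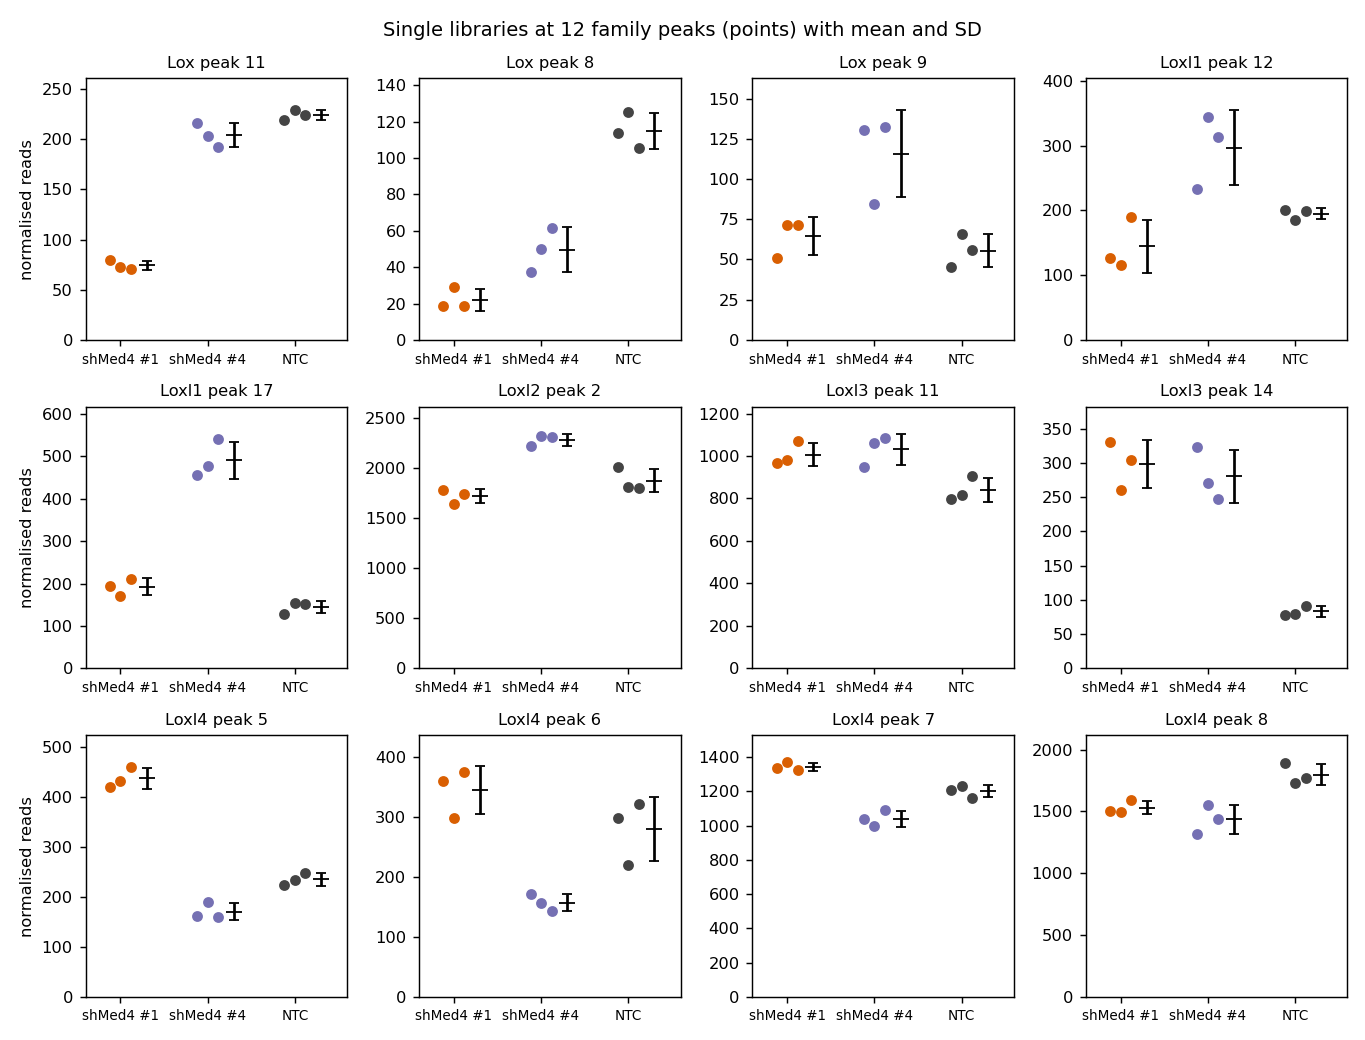
Normalised reads of single libraries (points) with mean and SD at 12 family peaks in shMed4 #1, shMed4 #4 and NTC cells, each panel starting at 0. At Lox peak 11 the shMed4 #1 libraries stand at 70.4 to 79.2 and all others at 192 or more, and at Loxl4 peaks 5 and 7 the 3 groups do not overlap.

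Loxl1, the member best known for elastic fibre upkeep, gained accessibility inside its gene with shMed4 #4. No peak lay within 1 kb of either gene end. Peak 17 (chr9:58308376-58308877), 4.59 kb inside the upper end, had 194, 171 and 211 normalised reads with shMed4 #1 and 456, 477 and 539.8 with shMed4 #4, against 128, 155 and 151 in NTC cells. Every shMed4 #4 library was above all others, and the shMed4 #1 libraries were above the NTC libraries by a small margin. The log2 fold was 0.41 with shMed4 #1 (SE 0.11, adjusted p = 0.00172), 1.76 with shMed4 #4 (SE 0.11, adjusted p = 2.32e-16) and 1.35 between shMed4 #4 and shMed4 #1 (SE 0.11, adjusted p = 1.08e-12).

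Other peaks of the gene body moved apart by hairpin. Peak 12 (chr9:58297038-58297539) had 126, 116 and 190.3 normalised reads with shMed4 #1 and 233, 344 and 314 with shMed4 #4, against 200.2, 185 and 199 in NTC cells. The shMed4 #4 libraries were the highest, and replicate 3 of shMed4 #1 lay within the NTC range while its other libraries lay below. Log2 folds were -0.46 with shMed4 #1 (adjusted p = 0.00595) and 0.59 with shMed4 #4 (adjusted p = 0.000675), and shMed4 #4 was higher than shMed4 #1 by 1.05 (adjusted p = 1.35e-07). Without shMed4 #1 replicate 2 the first of these was -0.32 and not called (adjusted p = 0.0769). Peak 16, named after its values were seen, averaged 135 ± 4.58 with shMed4 #1, 316 ± 55.5 with shMed4 #4 and 180.4 ± 18.8 in NTC cells (SD, n = 3 each), with folds of -0.41 (adjusted p = 0.00512) and 0.79 (adjusted p = 1.15e-06). The first of these calls was lost without NTC replicate 3 (-0.33, adjusted p = 0.0506). Over the 6 gene-body peaks, 2 rose and 2 fell with shMed4 #1, and 5 rose and 0 fell with shMed4 #4, where the remaining peak stood at 0.095 (adjusted p = 0.449).

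Outside the Loxl1 gene the hairpins gave closer values. Peak 19, 15.8 kb above the gene, had 225, 204 and 245 normalised reads with shMed4 #1 and 244, 215 and 205 with shMed4 #4, against 75.1, 111 and 93.3 in NTC cells. Both hairpin groups lay above every NTC library, with log2 folds of 1.28 (adjusted p = 3.02e-10) and 1.25 (adjusted p = 5.73e-10) and a difference of -0.022 between shMed4 #4 and shMed4 #1 (SE 0.13, adjusted p = 0.914). Peak 6, 541.5 bp above Stoml1, a gene for a stomatin-like membrane protein, averaged 248 ± 25.9, 177 ± 31.0 and 134 ± 18.7 (SD, n = 3 each) in shMed4 #1, shMed4 #4 and NTC cells. It rose by 0.89 with shMed4 #1 (adjusted p = 4.61e-07) and by 0.40 with shMed4 #4 (adjusted p = 0.0117), and the shMed4 #4 call was lost without shMed4 #4 replicate 1 (0.26, adjusted p = 0.121) or NTC replicate 3 (0.30, adjusted p = 0.0858). The most open site, peak 9, averaged 2609 ± 91.1, 2809 ± 163 and 2841 ± 23.6 (SD, n = 3 each) in the same groups. Its log2 fold of -0.12 with shMed4 #1 (adjusted p = 0.0332) was not called without shMed4 #1 replicate 2 (-0.095, adjusted p = 0.165) or without NTC replicate 1 (-0.12, adjusted p = 0.0949), 2 (-0.13, adjusted p = 0.0705) or 3 (-0.13, adjusted p = 0.0723). Nor was it called with libraries centred on gene-end peaks (-0.019, adjusted p = 0.736). Peak 2, inside Pml, the gene of the promyelocytic leukaemia body protein, fell by 0.14 with shMed4 #1 (adjusted p = 0.0394) and by 0.27 with shMed4 #4 (adjusted p = 0.000149). The first of these calls was lost when any one shMed4 #1 or NTC library was left out, with adjusted p = 0.051 to 0.157 and log2 folds of -0.16 to -0.11. Centring on gene-end peaks ended it too (-0.036, adjusted p = 0.643). The 21 Loxl1 peaks had median log2 folds of 0.012 with shMed4 #1 and 0.095 with shMed4 #4, against 0.066 and -0.0014 for other peaks within 5 Mb.

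Loxl2, a member that crosslinks basement membrane collagen, had its 3 gene-body peaks in the last 5 kb below the upper end, and each differed between the hairpins. Peak 2 (chr14:69692428-69692929), the most open of the locus, had 1776, 1638 and 1742 normalised reads with shMed4 #1 and 2214, 2317 and 2309 with shMed4 #4, against 2011, 1815 and 1797 in NTC cells. The shMed4 #4 libraries were above all others and the shMed4 #1 libraries were just under the lowest NTC library. Its log2 folds were -0.12 with shMed4 #1 (SE 0.053, adjusted p = 0.0461), 0.28 with shMed4 #4 (adjusted p = 2.44e-05) and 0.41 between shMed4 #4 and shMed4 #1 (adjusted p = 6.2e-08). The first call was lost without shMed4 #1 replicate 2 (-0.09, adjusted p = 0.22) or 3 (-0.13, adjusted p = 0.0584), shMed4 #4 replicate 2 (-0.12, adjusted p = 0.0523) or NTC replicate 1 (-0.072, adjusted p = 0.316). It was also lost with libraries centred on gene-end peaks (-0.021, adjusted p = 0.763) or scaled by trimmed means (-0.12, adjusted p = 0.0535).

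Peak 3 averaged 648 ± 24.3 with shMed4 #1, 480.2 ± 51.3 with shMed4 #4 and 506 ± 6.51 in NTC cells (SD, n = 3 each), with folds of 0.35 (adjusted p = 0.000128) and -0.081 (adjusted p = 0.377) and a difference of -0.44 between shMed4 #4 and shMed4 #1 (adjusted p = 1.01e-05). Beyond the gene, peak 5 lies inside R3hcc1, a neighbouring gene named for its R3H and coiled-coil domains. It had 102, 97.3 and 108 normalised reads with shMed4 #1 and 101, 84.4 and 111 with shMed4 #4, against 43.6, 32.9 and 59.7 in NTC cells, and was thus above every NTC library in both hairpin groups. The folds were 1.20 (adjusted p = 4.29e-06) and 1.14 (adjusted p = 1.12e-05). Peak 9, 46.0 kb above the gene, averaged 73.1 ± 11.3, 74.6 ± 6.11 and 106 ± 3.59 (SD, n = 3 each) in shMed4 #1, shMed4 #4 and NTC cells. It fell by 0.55 with shMed4 #1 (adjusted p = 0.00998) and fell by 0.51 with shMed4 #4 (adjusted p = 0.0171). The shMed4 #1 call there was lost without shMed4 #1 replicate 3 (-0.42, adjusted p = 0.0705), and the shMed4 #4 call without shMed4 #4 replicate 2 (-0.46, adjusted p = 0.0537) or NTC replicate 3 (-0.49, adjusted p = 0.0578). Centring on gene-end peaks also ended the shMed4 #4 call (-0.40, adjusted p = 0.0803). The 10 Loxl2 peaks had medians of -0.10 with shMed4 #1 and -0.12 with shMed4 #4, against -0.0085 and -0.10 for other peaks within 5 Mb.

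Loxl3, a member that mice need for palate and spine development, had peaks at both gene ends and none in between. Peak 11 (chr6:83033887-83034388), centred 67.5 bp below the lower end and within 1 kb of Dok1 as well, had 969, 979.9 and 1069 normalised reads with shMed4 #1 and 948, 1062 and 1083 with shMed4 #4, against 799, 816 and 904 in NTC cells. All hairpin libraries exceeded all NTC libraries. It rose by 0.26 with shMed4 #1 (SE 0.064, adjusted p = 0.000822) and by 0.30 with shMed4 #4 (SE 0.064, adjusted p = 0.000221), and the difference between shMed4 #4 and shMed4 #1 was 0.034 (SE 0.064, adjusted p = 0.709). Peak 10, 698.5 bp below the same end and 11.5 bp above Dok1, a gene for an adaptor of tyrosine kinase signalling, averaged 1148 ± 39.9, 1052 ± 64.9 and 1199 ± 8.0 (SD, n = 3 each). It stood at -0.063 with shMed4 #1 (adjusted p = 0.366) and fell by 0.19 with shMed4 #4 (adjusted p = 0.00575), a call that centring on gene-end peaks ended (-0.08, adjusted p = 0.267). At the upper end, peak 12 lies inside Htra2, which encodes a mitochondrial protease, and averaged 1132 ± 20.2, 1183 ± 66.5 and 1015 ± 27.3 (SD, n = 3 each). It rose by 0.16 (adjusted p = 0.0204) and 0.22 (adjusted p = 0.00158). The first call was lost without shMed4 #1 replicate 3 (0.14, adjusted p = 0.0634), NTC replicate 2 (0.15, adjusted p = 0.065) or NTC replicate 3 (0.14, adjusted p = 0.0726), and both were lost with regional shifts removed (0.073 and 0.13).

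The steepest gains of the Loxl3 window lay in its neighbours. Peak 14 (chr6:83066049-83066550), inside the helicase-like gene Dqx1 and 13.7 kb above Loxl3, had 331, 260.4 and 305 normalised reads with shMed4 #1 and 323, 271 and 247 with shMed4 #4, against 78.3, 79.1 and 91.6 in NTC cells. The lowest hairpin library exceeded the highest NTC library by far, and the folds were 1.83 (SE 0.12, adjusted p = 2.07e-15) and 1.74 (SE 0.12, adjusted p = 1.17e-14), with -0.093 between shMed4 #4 and shMed4 #1 (adjusted p = 0.578). Peak 5, inside M1ap and named after its values were seen, averaged 827 ± 27.1, 537 ± 45.5 and 247 ± 22.3 (SD, n = 3 each) and rose by 1.74 (adjusted p = 2.52e-20) and 1.12 (adjusted p = 1.24e-14). Peak 16, between Dqx1 and Tlx2, averaged 334 ± 8.47, 194 ± 22.7 and 215 ± 19.5 (SD, n = 3 each). It rose with shMed4 #1 by 0.64 (adjusted p = 3.11e-06), stood at -0.14 with shMed4 #4 (adjusted p = 0.258), and was lower with shMed4 #4 than with shMed4 #1 by -0.78 (adjusted p = 1.34e-07).

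At the far side of the Loxl3 window, peak 19, 40.3 kb above the gene, averaged 62.8 ± 5.95, 77.6 ± 9.37 and 122 ± 8.01 (SD, n = 3 each) in shMed4 #1, shMed4 #4 and NTC cells. It fell by 0.95 with shMed4 #1 (adjusted p = 2.29e-05) and fell by 0.65 with shMed4 #4 (adjusted p = 0.00244). Peak 20 averaged 350.5 ± 24.4, 407 ± 32.0 and 426 ± 24.0 (SD, n = 3 each) in the same groups. It fell by 0.28 with shMed4 #1 (adjusted p = 0.00471), a call that centring on gene-end peaks ended (-0.18, adjusted p = 0.103), and stood at -0.068 with shMed4 #4 (adjusted p = 0.518). Its difference of 0.21 between shMed4 #4 and shMed4 #1 (adjusted p = 0.038) was lost without shMed4 #1 replicate 2 (0.18, adjusted p = 0.135) or 3 (0.19, adjusted p = 0.113), or without shMed4 #4 replicate 2 (0.21, adjusted p = 0.0767) or 3 (0.16, adjusted p = 0.163). With libraries centred on gene-end peaks that difference was not called either (0.22, adjusted p = 0.0506). Peak 1, inside M1ap and the most open of the window, averaged 4255 ± 96.3, 4113 ± 231 and 4074 ± 142 (SD, n = 3 each), with folds of 0.063 (adjusted p = 0.265) and 0.013 (adjusted p = 0.837). The 22 Loxl3 peaks had medians of 0.17 with shMed4 #1 and -0.0044 with shMed4 #4, against 0.077 and 0.061 for other peaks within 5 Mb.

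Loxl4, a matrix crosslinking member whose expression responds to TGF-beta, showed opposite changes by hairpin at its 3 gene-body peaks. All lie near the start end, the farthest centred 4.53 kb inside it. At peaks 6 and 7 some of these calls were lost in alternatives, as given below. Peak 5 (chr19:42608024-42608525), 4.53 kb inside the start end of the gene, had 420.2, 432 and 461 normalised reads with shMed4 #1 and 162, 191 and 161 with shMed4 #4, against 224, 234 and 249 in NTC cells. The 3 groups did not overlap, with shMed4 #1 highest and shMed4 #4 lowest. The log2 folds were 0.89 with shMed4 #1 (SE 0.099, adjusted p = 1.06e-09), -0.46 with shMed4 #4 (SE 0.099, adjusted p = 0.000171) and -1.35 for shMed4 #4 against shMed4 #1 (SE 0.099, adjusted p = 1.00e-13). No alternative scaling, filter or left-out library ended these 3 calls.

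Peak 6 (chr19:42611265-42611766), 1.29 kb inside the start end, had 360.1, 299 and 375 normalised reads with shMed4 #1 and 172, 157 and 143 with shMed4 #4, against 299, 221 and 322 in NTC cells. The shMed4 #4 libraries were below all others, while the shMed4 #1 and NTC libraries overlapped. It fell by 0.81 with shMed4 #4 (adjusted p = 3.69e-07) and was lower with shMed4 #4 than with shMed4 #1 by -1.12 (adjusted p = 7.33e-10). The fold of 0.31 with shMed4 #1 (adjusted p = 0.0265) was not called without shMed4 #1 replicate 1 (0.28, adjusted p = 0.0943) or 3 (0.25, adjusted p = 0.126), or without NTC replicate 2 (0.15, adjusted p = 0.321). With equal library totals that fold was 0.28 and not called (adjusted p = 0.0504).

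The Loxl4 gene-end peak, peak 7 (chr19:42612192-42612693), is centred 363.5 bp inside the start, next to the GC-rich promoter printed above. It had 1335, 1370.1 and 1325 normalised reads with shMed4 #1 and 1037, 998 and 1090.1 with shMed4 #4, against 1211, 1229 and 1163 in NTC cells. Its 3 groups were again apart and in the same order as at peak 5, with smaller steps. The log2 fold was 0.16 with shMed4 #1 (SE 0.055, adjusted p = 0.0141), -0.21 with shMed4 #4 (SE 0.055, adjusted p = 0.00219) and -0.37 between shMed4 #4 and shMed4 #1 (SE 0.055, adjusted p = 1.22e-06). The first call was lost without shMed4 #1 replicate 2 (0.15, adjusted p = 0.0579) or NTC replicate 3 (0.14, adjusted p = 0.0753), and the second with libraries centred on gene-end peaks (-0.095, adjusted p = 0.186).

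On the other side of the promoter, peak 8 (chr19:42613703-42614204) had 1501, 1495 and 1593 normalised reads with shMed4 #1 and 1314, 1550.1 and 1439 with shMed4 #4, against 1894, 1727 and 1769.6 in NTC cells. All hairpin libraries were below all NTC libraries, with folds of -0.23 (adjusted p = 0.00088) and -0.33 (adjusted p = 1.03e-05). The difference of -0.096 between shMed4 #4 and shMed4 #1 (adjusted p = 0.187) was called without shMed4 #4 replicate 2 (-0.15, adjusted p = 0.0483). Peak 3, inside R3hcc1l and 20.7 kb below Loxl4, had 503, 499 and 440.1 normalised reads with shMed4 #1 and 354, 316 and 314 with shMed4 #4, against 253, 225 and 233 in NTC cells. The groups did not overlap, and it rose by 1.02 (adjusted p = 2.83e-12) and 0.47 (adjusted p = 3.48e-05). The most open site, peak 12, 47.4 kb above the gene, averaged 2997 ± 96.3, 2742 ± 138 and 2961 ± 41.4 (SD, n = 3 each), with folds of 0.017 (adjusted p = 0.784) and -0.11 (adjusted p = 0.0509). Its call for shMed4 #4 against NTC appeared without shMed4 #4 replicate 2 or 3 (both -0.13, adjusted p = 0.0477 and 0.0244). Its difference of -0.13 between shMed4 #4 and shMed4 #1 (adjusted p = 0.029) was lost without shMed4 #1 replicate 1 (-0.10, adjusted p = 0.154) or 2 (-0.14, adjusted p = 0.0516) or shMed4 #4 replicate 1 (-0.086, adjusted p = 0.123). The 13 Loxl4 peaks had medians of 0.16 with shMed4 #1 and -0.14 with shMed4 #4, against -0.018 and -0.082 for other peaks within 5 Mb.

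Taking the 5 gene-end peaks of the family as a group (Lox peak 11, Loxl3 peaks 10, 11 and 12 and Loxl4 peak 7), 3 rose and 1 fell with shMed4 #1, and 2 rose and 2 fell with shMed4 #4. Among 12521 genes, each read at its most open gene-end peak alone, 10.6% were higher and 36.3% lower with shMed4 #1. With shMed4 #4, 10.7% were higher and 42.5% lower. The family count is by peak, with 3 of the 5 at Loxl3, so it is not of the same kind as these shares. Read by gene, Loxl3 stands at peak 10, which was not called with shMed4 #1 and was lower with shMed4 #4. Peak 10 is its most open gene-end peak but lies nearer to Dok1. Peak 11, the one nearest to Loxl3, was higher with both hairpins (0.26 and 0.30). Lox peak 11 was lower with shMed4 #1 and not called with shMed4 #4. Loxl4 peak 7 was higher with shMed4 #1 and lower with shMed4 #4. Loxl3 peaks 11 and 12 lay above the median log2 fold of all gene-end peaks, which was -0.10 with shMed4 #1 and -0.12 with shMed4 #4. Between the hairpins 2 of the 5 differed, Lox peak 11 and Loxl4 peak 7, against 30.3% of genes.

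Summed over the whole window, the loci differed by less than their single peaks did. The Lox sum was 13021, 12927 and 12736 normalised reads with shMed4 #1 and 15107, 14859.9 and 15464 with shMed4 #4, against 15731, 16221 and 15509 in NTC cells, which are log2 ratios of -0.29 and -0.063. The Loxl4 sum was 13748, 13448 and 13841 with shMed4 #1 and 10917, 11606 and 11568 with shMed4 #4, against 12171, 11904 and 11878 in NTC cells, which are 0.19 and -0.077. At both loci all 3 groups were apart. Loxl3 averaged 27379 ± 634, 24875 ± 828 and 24266 ± 168 (SD, n = 3 each) in shMed4 #1, shMed4 #4 and NTC cells, and its shMed4 #1 libraries were above all others. Loxl1 averaged 11851 ± 302, 13166 ± 633 and 11953 ± 119 (SD, n = 3 each), with its shMed4 #4 libraries above all others. Loxl2 averaged 5273 ± 122, 5459 ± 214 and 5512 ± 30.6 (SD, n = 3 each), where only shMed4 #1 and NTC libraries did not overlap. An exact two-sided permutation test of 3 against 3 libraries cannot give less than p = 0.1, the value reached in each of the 11 comparisons whose groups were apart (0.136 after Benjamini-Hochberg adjustment over 15).

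Sums over the gene body alone gave wider ratios at the members that changed there. The Loxl1 gene body held 2569.8, 2494 and 2824 normalised reads with shMed4 #1 and 3788, 4236 and 4459 with shMed4 #4, against 2701, 2694 and 2728 in NTC cells. Every shMed4 #4 library was above the rest, a log2 ratio of 0.62 to NTC, while shMed4 #1 overlapped NTC at -0.042. The Loxl4 gene body held 2115, 2101 and 2161 with shMed4 #1 and 1371, 1345 and 1394 with shMed4 #4, against 1733, 1684 and 1734 in NTC cells, log2 ratios of 0.31 and -0.33. The small gene-body sum of Lox averaged 119.5 ± 14.4, 197 ± 23.3 and 147 ± 19.1 (SD, n = 3 each), with shMed4 #4 above NTC by 0.42 and shMed4 #1 overlapping NTC at -0.30.

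**Figure D4:**
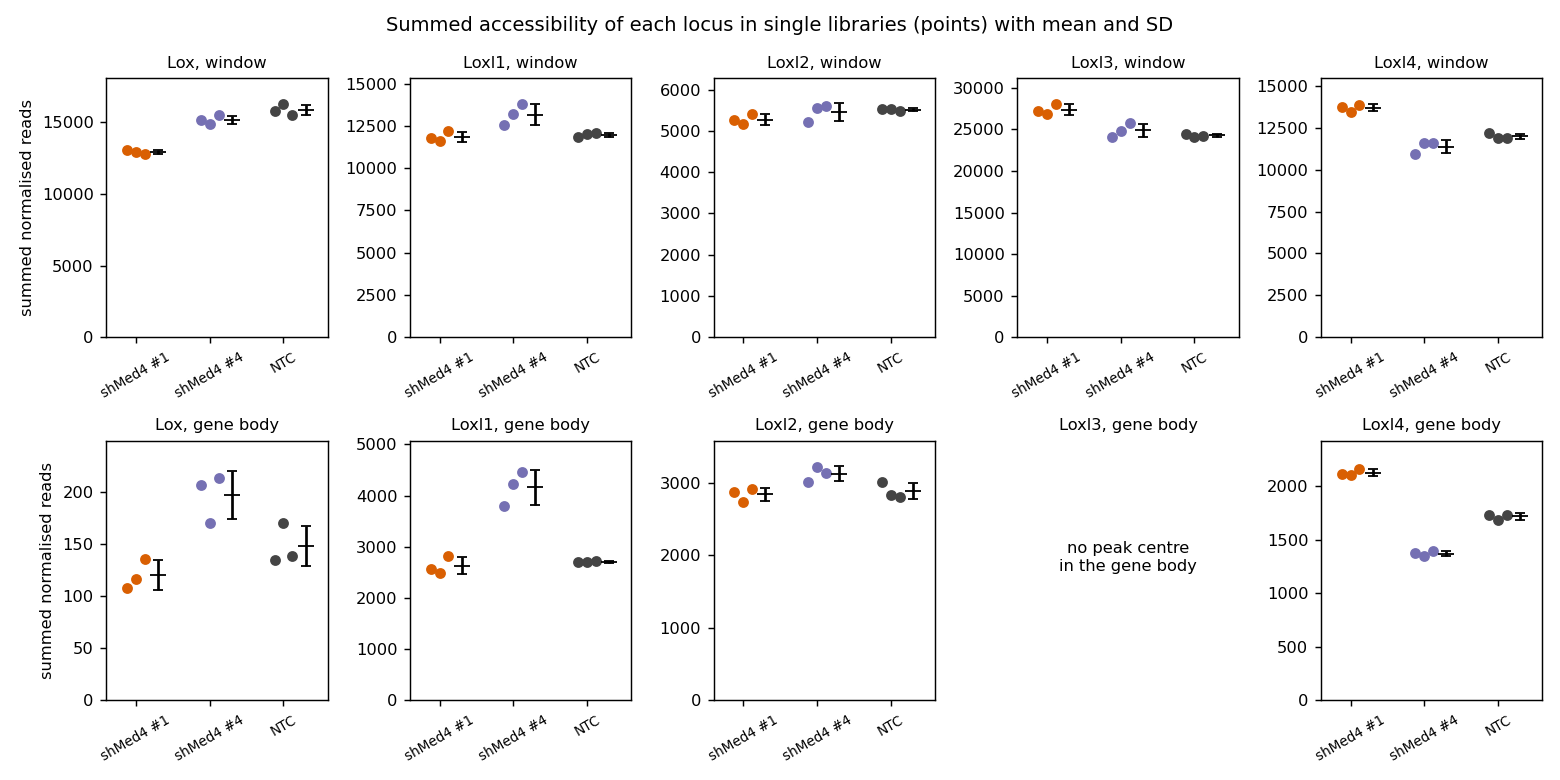
Summed normalised reads of each lysyl oxidase locus in single libraries (points) with mean and SD in shMed4 #1, shMed4 #4 and NTC cells, over the window of 50 kb either side (top) and over the gene body (bottom), each axis starting at 0. The Loxl4 gene body stands at 2101 to 2161 with shMed4 #1, 1345 to 1394 with shMed4 #4 and 1684 to 1734 in NTC cells.

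For each member with a gene-end peak, the 2 genes on other chromosomes whose gene-end peak followed it most closely were sought among 11976 genes by Pearson r of log2 values over the 9 libraries, which share the 3 groups. Lox peak 11 was closest to Itgb7 (r = 0.993), which encodes an integrin subunit of lymphocytes, and Tnp2 (r = 0.986), which encodes a sperm chromatin protein. Itgb7 averaged 1026, 1736 and 1840.1 normalised reads in shMed4 #1, shMed4 #4 and NTC cells. Loxl3 peak 10, the most open of its gene-end peaks, was closest to Wsb1 (r = 0.983) and Map1s (r = 0.981), which encode a ubiquitin ligase subunit and a microtubule-associated protein. By position, that peak lies nearer to Dok1 than to Loxl3. Loxl4 peak 7 was closest to Ssc4d (r = 0.981), which encodes a scavenger receptor cysteine-rich protein, and the zinc finger gene Zfp827 (r = 0.980). Ssc4d averaged 683 normalised reads with shMed4 #1 and 405 with shMed4 #4, against 553 in NTC cells.

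Genes that work with lysyl oxidases were read at their most open gene-end peak, which 61 of 77 listed genes had. With shMed4 #1, 9 rose and 26 fell, against 10.6% higher and 36.3% lower among all genes. With shMed4 #4, 11 rose and 26 fell, against 10.7% higher and 42.5% lower among all genes. The genes form 6 lists, and their median log2 folds, -0.10 and -0.12, were those of all 12521 genes, at -0.096 and -0.12. The shares of all genes given here are also the background for the count of each list below. Col4a1 and Col4a2 share a peak and count as separate genes.

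Among 8 measured genes that activate or bind lysyl oxidases, 3 rose and 3 fell with shMed4 #1 and 2 rose and 2 fell with shMed4 #4. Postn, which encodes periostin, a matrix protein that helps recruit the enzyme that activates Lox, had 573, 601 and 584 normalised reads with shMed4 #1 and 413, 348 and 434 with shMed4 #4, against 267, 266 and 260.2 in NTC cells. The groups did not overlap, and it rose by 1.15 (adjusted p = 2.27e-14) and 0.58 (adjusted p = 2.94e-07). Thbs1, which encodes thrombospondin, had 125, 157 and 101 with shMed4 #1 and 327, 262 and 314 with shMed4 #4, against 337, 336 and 319 in NTC cells. It fell by 1.39 with shMed4 #1 (adjusted p = 2.48e-12) and stood at -0.14 with shMed4 #4 (adjusted p = 0.34), with 1.25 between shMed4 #4 and shMed4 #1 (adjusted p = 1.07e-10), a pattern of values like that of Lox peak 11. Tnxb, for tenascin-X, a glycoprotein of collagen fibres, fell by 0.31 (adjusted p = 3.01e-05) and by 0.25 (adjusted p = 0.000546).

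Of 6 measured collagen genes, 1 rose and 4 fell with each hairpin, where Col4a1 and Col4a2 are counted as separate genes at 1 shared peak. Among all genes, 10.6% were higher and 36.3% lower with shMed4 #1, and 10.7% higher and 42.5% lower with shMed4 #4. Col4a1 and Col4a2, which encode the chains of basement membrane collagen, share a peak that averaged 483 ± 82.6 with shMed4 #1, 373 ± 59.4 with shMed4 #4 and 750.2 ± 23.6 in NTC cells (SD, n = 3 each). It fell by 0.65 (adjusted p = 4.52e-07) and by 1.02 (adjusted p = 2.49e-11). Col2a1, for cartilage collagen, averaged 573 ± 4.17, 477 ± 56.2 and 390.5 ± 14.4 (SD, n = 3 each) and rose by 0.55 (adjusted p = 2.22e-07) and 0.28 (adjusted p = 0.00308).

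Of 10 measured genes for collagen hydroxylation and folding, 2 rose and 1 fell with shMed4 #1, and 2 rose and 2 fell with shMed4 #4. The widest change of all lists was at Fkbp10, which encodes a prolyl isomerase of the endoplasmic reticulum needed for collagen crosslinking, at a peak shared with P3h4. It had 352, 351 and 376 normalised reads with shMed4 #1 and 417, 417 and 379 with shMed4 #4, against 43.6, 78.0 and 68.7 in NTC cells. Both hairpin groups stood far above NTC, with log2 folds of 2.53 (SE 0.13, adjusted p = 2.92e-18) and 2.69 (SE 0.13, adjusted p = 5.69e-19). Serpinh1, for the collagen chaperone HSP47, rose by 0.19 (adjusted p = 0.00242) and 0.25 (adjusted p = 0.000123).

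Of 10 measured elastic fibre genes, 2 rose and 5 fell with shMed4 #1, and 5 rose and 3 fell with shMed4 #4. Emilin2, for an elastin-associated glycoprotein, averaged 202 ± 15.8 with shMed4 #1, 255 ± 37.2 with shMed4 #4 and 113 ± 14.4 in NTC cells (SD, n = 3 each) and rose by 0.84 (adjusted p = 7.16e-07) and 1.16 (adjusted p = 8.48e-10). Its relative Emilin1 fell by 0.21 (adjusted p = 0.000366) and by 0.30 (adjusted p = 2.21e-06). Efemp1, for a fibulin, rose by 0.81 (adjusted p = 4.76e-11) and 0.36 (adjusted p = 0.00022). Mfap5, for a microfibril protein and named after its values were seen, averaged 72.7 ± 4.65, 205 ± 19.7 and 124 ± 1.93 (SD, n = 3 each), lower with shMed4 #1 (-0.76, adjusted p = 2.31e-05) and higher with shMed4 #4 (0.72, adjusted p = 6.35e-05), with 1.48 between shMed4 #4 and shMed4 #1 (adjusted p = 9.24e-11).

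Of 7 genes for copper delivery, on which the enzymes depend, 1 rose and 2 fell with shMed4 #1, and 0 rose and 2 fell with shMed4 #4. Slc31a2, a copper transporter gene, rose with shMed4 #1 by 0.30 (adjusted p = 0.000932). Atox1, for a copper chaperone, fell by 0.16 (adjusted p = 0.00774) and by 0.18 (adjusted p = 0.00368). Atp7a, for the pump that loads copper into secreted enzymes, fell by 0.16 (adjusted p = 0.0211) and by 0.23 (adjusted p = 0.00137).

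Among 20 regulators of lysyl oxidase genes (hypoxia factors, TGF-beta signalling, AP-1, TEAD and epithelial-mesenchymal transition factors), 0 rose and 11 fell with shMed4 #1, and 1 rose and 13 fell with shMed4 #4. Among all genes, 36.3% were lower with shMed4 #1 and 42.5% with shMed4 #4, and 10.6% and 10.7% were higher. The 1 that rose was Epas1, for a hypoxia-inducible factor, at 0.46, named after its values were seen. The list's median log2 fold was -0.17 with either hairpin, against -0.096 and -0.12 over all genes. Snai1, which encodes the transition factor Snail, had 4860.2, 4849 and 5253 normalised reads with shMed4 #1 and 5047, 5131 and 5413 with shMed4 #4, against 6514, 6327 and 6733 in NTC cells. All hairpin libraries were below all NTC libraries, and it fell by 0.39 (adjusted p = 3.27e-09) and by 0.33 (adjusted p = 1.37e-07). Twist1, for another transition factor, fell by 0.41 (adjusted p = 1.28e-06) and by 0.31 (adjusted p = 0.000105), and Smad4, for the shared TGF-beta effector, fell by 0.21 (adjusted p = 0.00347) and by 0.40 (adjusted p = 4.22e-07). With libraries centred on gene-end peaks the lists together had 14 higher and 18 lower genes with shMed4 #1, and 15 higher and 12 lower with shMed4 #4.

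**Figure D5:**
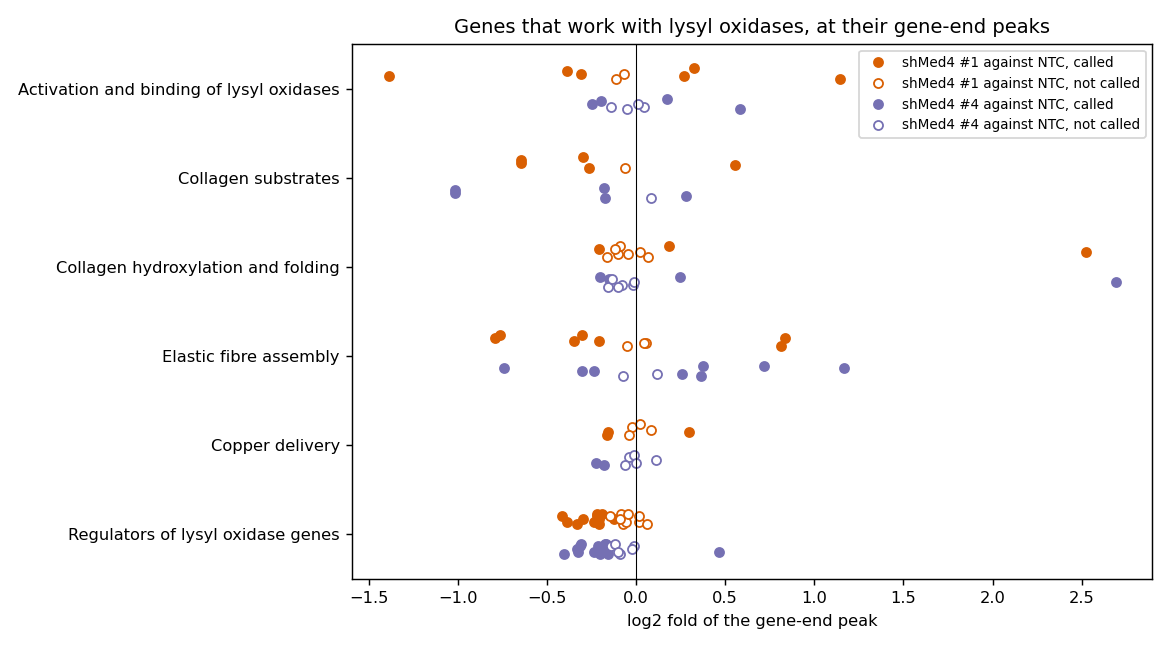
Log2 fold (limma) at the gene-end peak of 61 genes that work with lysyl oxidases, in 6 lists, for shMed4 #1 against NTC and shMed4 #4 against NTC, with filled points for called and open points for uncalled genes. The points at 2.53 and 2.69 are Fkbp10, those of Col4a1 and Col4a2 coincide at -0.65 and -1.02, and the regulators reach down to -0.41 with shMed4 #1.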

How the data were processed

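Accessibility values came from one deposited table of 9 libraries; the unit is signal, namely read counts per peak that the authors had normalised with DESeq2, per the file name. The submitters' processing notes list MACS2, BWA, featureCounts, Subread and Trim Galore, with the builds mm10 and GRCm38. How peaks were called across libraries was not given in the sources used here. Every peak spans 501 by end minus start, and coordinates are printed as deposited, with their first base (0 or 1) unstated. Strand was used for Loxl4 alone.

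Log2(value + 1) was fitted with limma 3.58.1 (R 4.3.3, lmFit and eBayes with trend) on group means of all 9 libraries. P-values were Benjamini-Hochberg adjusted over 146729 peaks, after 5 peaks averaging under 10 were removed. The pseudocount understates folds of low peaks. Summaries and figures used Python 3.11.15, pandas 2.3.3, scipy 1.17.1 and matplotlib 3.10.9. The scripts were tested on simulated data. The p-values cover the spread among these libraries, which the labels call biological replicates without saying whether each was transduced separately. No libraries were merged: chi-square per degree of freedom was 1.99 to 2.92 within groups and 9.96 to 29.1 between them. Depth was estimated from the steps of the values.

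Named peaks were every gene-end peak, the most open peak of each locus and, per locus and comparison, the called peaks of highest and lowest log2 fold. Named partner genes were the 2 of lowest p per list and hairpin. Members, lists and rule were chosen with earlier results of these data known. Alternatives were other pseudocounts, filters, scalings, windows and left-out libraries. The summed level of leukocyte markers is not reported here.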

Additional observations from a re-analysis of the deposited data

Results flagged for a closer look

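At 8 of the 83 peaks the hairpins were called in opposite directions against NTC and the test of shMed4 #4 against shMed4 #1 was called as well. The share of such peaks among all peaks tested was not computed, so this count has no background beside it. Of all peaks tested, 52.7% were called with shMed4 #1 against NTC, 50.4% with shMed4 #4 against NTC and 41.6% between the hairpins. The log2 fold of shMed4 #4 against shMed4 #1 was 0.59 at Lox peak 13, 1.05 at Loxl1 peak 12, 1.20 at Loxl1 peak 16, 0.41 at Loxl2 peak 2, -0.28 at Loxl3 peak 4, -1.35 at Loxl4 peak 5, -1.12 at Loxl4 peak 6 and -0.37 at Loxl4 peak 7. Lox peak 13 lies 7.06 kb above Lox, Loxl3 peak 4 lies inside M1ap, 27.8 kb below Loxl3, and the others lie in the body of their member gene. At Loxl3 peak 4 the log2 folds against NTC were 0.15 for shMed4 #1 (limma adjusted p = 0.011) and -0.13 for shMed4 #4 (limma adjusted p = 0.0258). At Loxl1 peaks 12 and 16, Loxl2 peak 2 and Loxl4 peaks 6 and 7, the call of shMed4 #1 against NTC was lost without single libraries, as given beside each above. At Loxl3 peak 4 the shMed4 #1 call was lost without shMed4 #1 replicate 2 (0.12, limma adjusted p = 0.0827). The shMed4 #4 call there was lost without shMed4 #4 replicate 2 (-0.098, limma adjusted p = 0.153) or without NTC replicate 1 (-0.12), 2 (-0.13) or 3 (-0.14), with limma adjusted p = 0.0543 to 0.0828. Scaling mattered there too: the shMed4 #1 call was lost with regional shifts removed (0.068, limma adjusted p = 0.26). The shMed4 #4 call at that peak was lost with libraries centred on gene-end peaks (-0.021, limma adjusted p = 0.735). Other scalings also ended the shMed4 #1 call at Loxl2 peak 2 and Loxl4 peak 6 and the shMed4 #4 call at Loxl4 peak 7, as given above. Groups of 3 libraries are too small for a test of single outlying libraries, and none was made.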

How the results depend on the processing

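Over 34 peaks and 3 comparisons, 1849 of 1938 alternative values kept their side of the threshold, 70 lost a call and 17 gained one. In 2 cases a called value changed sign and lost its call, both at Lox peak 14 with regional shifts removed. These stood at 0.040 for shMed4 #1 against NTC and -0.028 for shMed4 #4 against shMed4 #1. That alternative subtracts the local median. Uncalled values that changed sign count as kept. Loxl3 peak 1 with shMed4 #1 against NTC, for example, stood at 0.063, and at -0.019 with regional shifts removed. Of called family peaks, a window of 10 kb left 10 higher and 10 lower for shMed4 #1, 11 and 7 for shMed4 #4, and 12 higher and 8 lower for shMed4 #4 against shMed4 #1, where the whole windows had 17 higher and 26 lower. The gene body alone left 6 and 4, 7 and 4, and 8 and 6 in the same order, since fewer peaks enter. Centring on gene-end peaks left 14 lower for shMed4 #4, and 14 higher partner genes for shMed4 #1 and 12 lower for shMed4 #4; the cause was not tested. Leaving out single libraries gave 25 to 28 higher and 19 to 28 lower for shMed4 #1, 22 to 24 and 20 to 28 for shMed4 #4, and 15 to 18 and 21 to 27 for shMed4 #4 against shMed4 #1, with 8 to 11 gene-end calls, against 10.

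Log2 ratios of summed loci moved as follows, with the cause not tested. With equal library totals, shMed4 #1 against NTC stood at -0.33 for Lox, -0.044 for Loxl1, -0.096 for Loxl2, 0.14 for Loxl3 and 0.16 for Loxl4, and shMed4 #4 against shMed4 #1 at 0.26 for Lox. With 10 kb windows, shMed4 #1 against NTC stood at -0.35 for Lox, 0.053 for Loxl1, -0.021 for Loxl2, 0.11 for Loxl3 and 0.052 for Loxl4. For shMed4 #4 against NTC they were 0.023 for Lox, 0.48 for Loxl1, 0.12 for Loxl2 and -0.32 for Loxl4, and for shMed4 #4 against shMed4 #1 0.37, 0.43, 0.14 and -0.37 at the same loci, and -0.076 for Loxl3. In the gene body, shMed4 #1 against NTC stood at -0.042 for Loxl1, -0.021 for Loxl2 and 0.31 for Loxl4. For shMed4 #4 against NTC they were 0.42 for Lox, 0.62 for Loxl1, 0.12 for Loxl2 and -0.33 for Loxl4, and for shMed4 #4 against shMed4 #1 0.72, 0.66, 0.14 and -0.63 at the same loci.

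Deviations of same-numbered libraries correlated weakly (r -0.011 to 0.073 over 9 pairs, against -0.10 to 0.041 over 18 others), under the 0.1 set for calling numbers paired. In 14 of 18 comparisons of a library with another group it correlated best with its own number, a hint from the data and not from the design. With the replicate block, 28 peaks were higher and 28 lower for shMed4 #1, 24 and 28 for shMed4 #4, and 17 and 28 for shMed4 #4 against shMed4 #1. The planned count tests in edgeR and DESeq2 were not run: all values were whole multiples of a step in each library (within 0.001 steps), but the smallest value above 0 was 2 steps in 5 of 9 libraries, and the values were not treated as counts. Depth limits low peaks most: the median peak held 110.0 to 247 reads.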
